A study of Macaca mulatta with 24 samples.

Results

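In the omental fat of 24 female rhesus macaques, 1646 tiles of 1 kb combined an intermediate methylation level with a wide spread between animals. Each tile held at least 5 measured CpG rows, had a mean level of at least 35% and under 65%, and had a standard deviation (SD) of at least 10 percentage points over the animals. The tiles lay on chromosomes 1 to 20 of the rheMac8 build. They made up 3.07% of the 53544 tiles with at least 5 CpG rows and 33.8% of the 4869 tiles of the same level. The tiles were chosen by their measured level and SD over all animals, so both are given as a description and neither is tested. Group labels took no part in the selection, and the question asked here is how much of the spread lay between the treatment groups.

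The animals were young adults, 4 years old per the labels, and carried subcutaneous implants for 3 years. The implants of the groups T and T+WSD released testosterone, and those of the groups C and WSD held cholesterol. C and T ate monkey chow, while WSD and T+WSD ate a western-style diet high in fat (WSD). Each of the 4 groups had 6 animals. Reduced-representation bisulfite sequencing (RRBS), which reads CpGs near MspI cut sites, was run on a separate library per animal from whole tissue sampled at the end of the treatment, in year 3 per the labels and after 3 years per the study's methods, which also give a higher age at sampling than the labels. All groups share sex, age, depot and implant surgery. Fewer cells of a type and a different level per cell cannot be told apart in whole tissue, and the tissue label was not checked against markers because the values are DNA methylation.

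Methylation of a CpG is a yes or no state on each DNA molecule. An intermediate percentage in a tissue therefore means a mixture of methylated and unmethylated molecules, which can come from different cells, from the maternal and paternal copies, or from molecules that differ within a cell type. CpGs that lie close together tend to share their state, because the methyltransferases and the enzymes that remove the mark act along a stretch of DNA. Loci with a parent-of-origin mark, loci whose state follows the local DNA sequence, and loci used by some of the cells of a tissue are textbook examples of intermediate methylation. Gene names, gene features and DNA sequence of the tiles were not used here, since no genome or annotation of the rheMac8 build was used.

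The variable tiles held 13720 CpG rows, with a median of 7 CpG rows in a tile. Their median level was 50.97%, and the median SD was 12.2 points, with a maximum of 31.3 points. From the lowest to the highest animal, the median tile covered 48.9 points. The 3223 tiles of the same level with an SD under 10 points had a median SD of 7.36 points and a median range of 28.9 points. All 24 animals had a value in 1287 of the variable tiles, and the fewest animals in a tile were 17. At the edge of the rule, the tile at chr10:84893001-84894000 (SD 10.0099) and the tile at chr16:302001-303000 (SD 10.01) fell just inside. The tiles at chr12:3588001-3589000 (SD 9.99485) and chr1:161715001-161716000 (SD 9.99629) fell just outside.

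Missing CpGs touched the spread. A tile value is the mean of the CpGs that have a value in that animal, so an animal that lacks an unmethylated CpG gets a higher mean. The median share of missing values was 5.39% in the variable tiles and 1.74% in the tiles of the same level with a smaller SD. With every CpG expressed as its deviation from its own mean, 1264 of the 1646 tiles (76.8%) still had an SD of at least 10 points. The other 382 tiles fell below it, 66 of them to under 5 points. The tiles that fell had a median of 8.33% missing values, against 4.17% in those that stayed. This second version of the tile values, called CpG-centred below, was added after the data were seen and is given beside the results that it moved most.

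Between-group differences accounted for 18.9% of the spread, pooled as sums of squares over the variable tiles. Labels that carry no information would give 13.04%, because 3 of 23 degrees of freedom lie between the groups. The per-tile share had a median of 16.9%, with quartiles of 9.06% and 27.8%. The pooled share was 19.6% in tiles of the same level with an SD under 10 points, 16.5% in those with an SD under 5 points and 17.1% over all tiles tested. As a variance component, the groups held 8.12% of the spread in the variable tiles, 9.25% in the same-level tiles with an SD under 10 points and 5.59% over all tiles. The larger part of the spread therefore lay between animals of the same group. CpG-centred values gave a pooled share of 20.7% over the same 1646 tiles.

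Within single groups the median SD of a variable tile was 11.3 points in C, 10.04 points in T+WSD, 12.2 points in T and 11.4 points in WSD. Animals that had received the same implant and diet were thus nearly as far apart as the animals of the whole study. The between-group share exceeded 50% in 60 variable tiles (3.65%) and was under 10% in 473 (28.7%). In same-level tiles with an SD under 10 points these percentages of tiles were 2.70% and 29.0%. Over all tiles tested they were 1.11% and 37.0%. Split into single degrees of freedom over 1288 balanced tiles, diet carried 8.82% of the spread, testosterone 5.58% and the interaction 4.60%, where uninformative labels give 4.35% each. In the same-level tiles with an SD under 10 points these parts were 8.87%, 6.26% and 4.60%.

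The share was lower in the tiles with the widest spread. The 770 tiles with an SD from 10 to 12 points had a pooled between-group share of 20.7%, and the 574 tiles from 12 to 15 points had 20.3%. In the 262 tiles from 15 to 20 points it was 16.9%, and in the 40 tiles of 20 points or more it was 11.6%, under the 13.04% of uninformative labels. Missing values rose along the same bins, from a median of 4.17% to 5.83%, 7.61% and 11.4%. CpG-centred values gave 21.9%, 21.8%, 19.4% and 12.4% in the same bins, so the order was also present with the CpG means taken out.

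**Figure D1:**
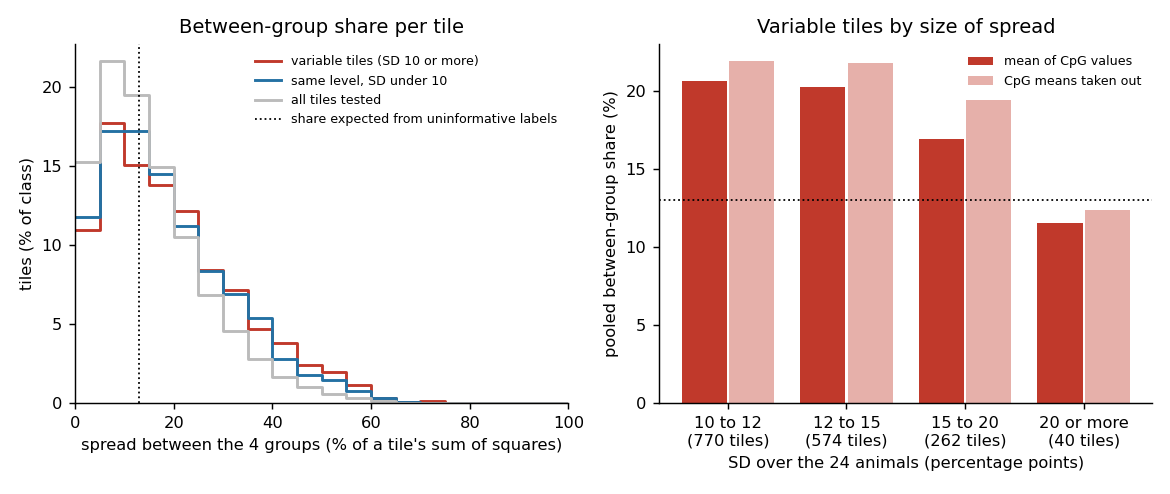
The left panel gives the percent of tiles of each class (vertical axis) by the percent of a tile's spread that lies between the 4 groups (horizontal axis, steps of 5), with a dotted line at the 13.04% of uninformative labels. The right panel gives the pooled share of the variable tiles in bins of their SD in percentage points, from 20.7% in the bin of 10 to 12 to 11.6% in the bin of 20 or more, with the CpG-centred values as pale bars.

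The largest spread of all was found at chr15:99944001-99945000, where 10 CpG rows lie within 68 bp (SD 31.3 points). Levels are given from here on as the lowest, median and highest animal of a group. In C they were at 41.7%, 49.9% and 97.7%. In T they were at 0.611%, 54.5% and 98.4%, in WSD at 0.43%, 67.9% and 98.0%, and in T+WSD at 0.492%, 71.2% and 98.0%. A single animal of each of T, WSD and T+WSD was thus almost unmethylated, and the next animal stood 41.1 points higher. Of the others, 7 animals were above 80%, and every group overlapped every other. Only 1.90% of the spread lay between the groups. The 10 CpGs moved together across animals, with a median pairwise r of 0.996 and a lowest r of 0.991, and such close CpGs can share the same reads.

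At chr19:14305001-14306000 (6 CpG rows within 67 bp, SD 30.4 points) animals fell into 3 sets of levels. The 7 lowest lay under 20%, from 3.88% to 13.02%, the next 12 ended at 49.5%, and after a gap of 39.9 points the 5 highest lay between 89.4% and 95.8%. The group levels were at 13.02%, 38.8% and 89.4% in C, and at 5.88%, 40.2% and 95.8% in T. They were at 7.03%, 34.8% and 91.6% in WSD, and at 3.88%, 44.7% and 93.6% in T+WSD. Each group therefore held animals of all 3 sets, and the groups took 1.65% of the spread.

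The tile at chr7:165012001-165013000 (7 CpG rows within 67 bp, SD 29.7 points) split the animals at a gap of 36.5 points, with 15 animals at or below 53.1% and 9 at or above 89.6%. The group levels were at 31.1%, 68.2% and 97.6% in C and at 24.4%, 42.5% and 90.8% in T. They were at 22.5%, 48.4% and 92.9% in WSD and at 1.02%, 71.7% and 95.0% in T+WSD. High animals occurred in every group, with T 13 the single T animal among them, and the between-group share was 7.77%.

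Not all of the widest tiles rested on a short stretch. The tile at chr13:75432001-75433000 had 32 CpG rows over 683 bp and an SD of 28.9 points, with CpGs over 75 bp apart at a median r of 0.871. Its lowest animals were T+WSD 9 at 2.57%, T 14 at 4.21% and WSD 20 at 6.86%, and the next animal, C 4, was at 26.7%. The animals lay at 26.7%, 72.9% and 85.9% in C and at 4.21%, 63.96% and 91.3% in T. They were at 6.86%, 68.0% and 88.5% in WSD and at 2.57%, 75.6% and 82.1% in T+WSD. The groups overlapped throughout, and their means of 61.4%, 56.1%, 58.4% and 60.7% held 0.542% of the spread.

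The tile at chr7:167036001-167037000 (5 CpG rows, SD 26.5 points, 23 animals) completed the widest 5. Its levels were at 25.5%, 49.5% and 94.0% in C, and at 41.9%, 62.1% and 97.6% in the 5 T animals with a value. They were at 25.003%, 45.2% and 90.9% in WSD and at 54.2%, 86.7% and 94.4% in T+WSD. The groups overlapped, and 18.2% of the spread lay between them. Its CpGs over 75 bp apart had a median r of 0.162.

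**Figure D2:**
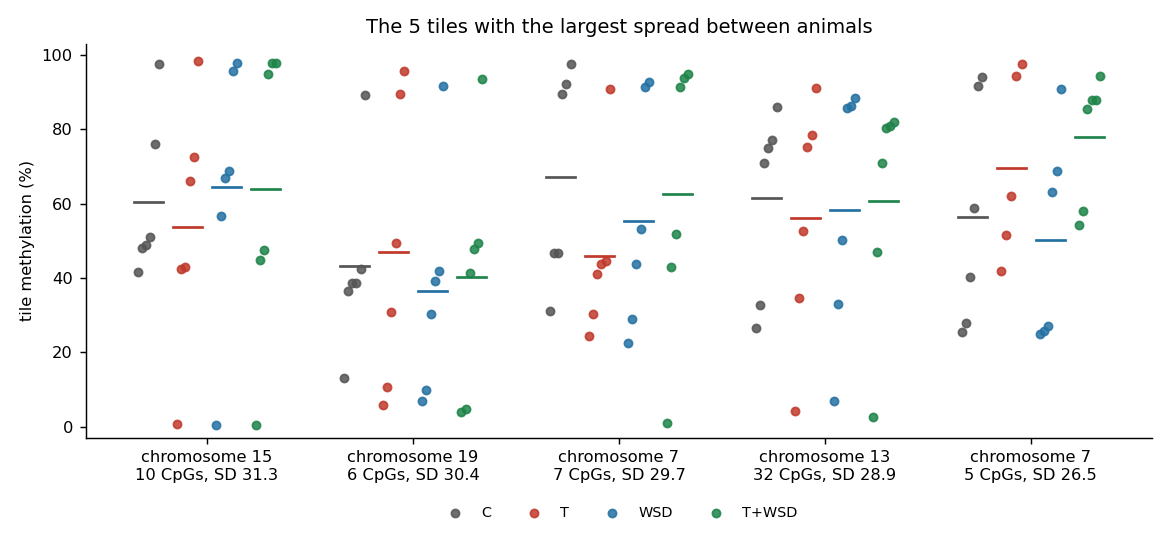
Methylation in percent (vertical axis) of the 5 tiles with the largest SD, with a point for each animal, colours for the 4 groups and a bar at each group mean. Low and high animals occur in several groups of the same tile, as at chromosome 15, where the 3 animals under 1% belong to T, WSD and T+WSD.

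By the smallest between-group share among the 50 most variable tiles, a further pair was selected. At chr8:142980001-142981000 (17 CpG rows over 247 bp, SD 20.04 points) the levels were at 34.5%, 51.1% and 93.4% in C and at 33.8%, 49.9% and 82.1% in T. They were at 22.1%, 47.3% and 88.8% in WSD and at 35.5%, 52.9% and 84.5% in T+WSD. The ranges of the groups overlapped almost fully, and 1.24% of the spread lay between them, with a median r of 0.802 between CpGs over 75 bp apart.

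The tile at chr20:74041001-74042000 had the smallest share, 0.345%, but its spread came with missing CpGs. As the mean of available CpGs, 16 animals lay between 35.3% and 49.2% and 8 between 88.9% and 99.4%, with an SD of 25.9 points and 20% of its values missing. By group, the levels were at 41.7%, 46.4% and 93.8% in C and at 35.3%, 39.9% and 93.3% in T. They were at 38%, 41.5% and 99.4% in WSD and at 38.7%, 40.2% and 96.1% in T+WSD. With CpG-centred values the same animals spanned 34.5% to 49.2%, and the SD was 3.18 points, of which 22.9% lay between the groups. Among the 50 most variable tiles, 13 fell under 10 points in this way and 26 kept an SD of at least 20 points.

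An animal below 20% and another above 80% occurred in the same tile in 102 variable tiles (6.20%), against 0.364% of all tiles tested. No same-level tile with an SD under 10 points held such a pair. The SD rule favours tiles with such a pair, so this excess follows largely from the selection and is given as a description. CpG-centred values left 58 of these 102. The median such tile had 1 animal below 20%, 21 animals between 20% and 80%, and 1 animal above 80%. The pooled between-group share was 15.8%, none of the 102 passed the limma F test over the 4 groups (0.028% of all tiles did), and 1 passed for T+WSD against C (0.39% of all tiles). An unadjusted limma F p under 0.05 was found in 21 of them (20.6%). It was found in 18.7% of same-level tiles with an SD under 10 points and in 9.38% of all tiles. Limma draws the variance of each tile towards a value common to all tiles, which favours a small p in tiles of large SD. CpGs with a range of at least 40 points, whose animals lay on average within 10 points of 0%, 50% or 100% (the levels that a mark on neither, 1 or both copies of a locus would give), made up 8.94% of the CpGs in variable tiles, 10.1% in same-level tiles with an SD under 10 points and 4.95% over all tiles. Such CpGs made up 18.6% of the CpGs in variable tiles with an SD of 20 points or more. From the lowest bin up, the other SD bins held 9.70%, 8.02% and 7.27%. They made up 100% at chr15:99944001-99945000, 83.3% at chr19:14305001-14306000 and 85.7% at chr7:165012001-165013000. The share was 15.6% at chr13:75432001-75433000 and 40% at chr7:167036001-167037000. Sequence differences between the animals were not measured here, and their part in the spread was not tested.

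The 4 groups differed in 3 variable tiles by limma's F test with Benjamini-Hochberg adjustment over the 53544 tiles (adjusted p under 0.05 and group means more than 10 points apart). Over all tiles tested 0.028% passed. The 3 tiles held between-group shares up to 74.7%. An unadjusted p under 0.05 was found in 364 variable tiles (22.1%), in 18.7% of the same-level tiles with an SD under 10 points, in 7.38% of those with an SD under 5 points and in 9.38% of all tiles. Of the variable tiles with an SD of 20 points or more, 10% reached it. Because limma draws tile variances towards a common value, tiles chosen for a large SD are favoured in such a comparison of classes. Part of the order between the classes therefore follows from the rule, here and for calls and p-values of the contrasts below. No tile passed without C 1, C 3, C 4 or T+WSD 12, and 1 passed without C 6, T+WSD 8 or T+WSD 10.

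The first of the 3, chr4:37257001-37258000 (5 CpG rows over 173 bp), was high in C and T+WSD and low in T and WSD. Methylation was at 48.1%, 54.0% and 65.03% in C, at 23.1%, 27.6% and 32.0% in T, at 14.1%, 33.7% and 47.7% in WSD and at 42.4%, 50.98% and 55.6% in T+WSD. Every T animal lay below every C and every T+WSD animal, while a single WSD animal, WSD 24, reached into T+WSD. Group means were 55.2% ± 6.90 in C, 49.5% ± 4.72 in T+WSD, 27.6% ± 3.65 in T and 31.6% ± 11.7 in WSD (SD, n = 6 each). The limma F test gave an adjusted p of 0.0243, and this call held in 20 of 25 refits (each animal left out in turn, and untransformed values). It was the single variable tile called for the interaction, against 0.0056% of all tiles: methylation was lower with testosterone on chow and higher with testosterone on WSD, and these effects lay 45.4 points apart (limma adjusted p = 0.00313), and that call held in 25 of the 25 refits. C and T+WSD are animals 1 to 12 and T and WSD are animals 13 to 24 in the labels, so an interaction cannot be told apart from a batch that followed these numbers. No batch is given in the labels.

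The second, chr4:171431001-171432000 (6 CpG rows within 43 bp), was lowest in C. The 3 levels were at 30.2%, 35.8% and 40.6% in C, at 52.7%, 54.9% and 58.6% in T, at 47.0%, 61.7% and 73.4% in WSD and at 54.7%, 64.7% and 80.7% in T+WSD. All 6 C animals lay below all 18 others, and the other groups overlapped. The limma adjusted p was 0.0243 over the 4 groups, 0.00519 for the 30.4 points between T+WSD and C, and 0.0303 for a diet effect of 17.3 points. The third, chr5:7781001-7782000 (8 CpG rows over 175 bp), rose with diet. The group values were at 32.8%, 42.4% and 57.0% in C, at 40.1%, 47.4% and 54.1% in T, at 52.6%, 59.0% and 62.7% in WSD and at 56.1%, 67.7% and 81.0% in T+WSD. Both WSD-fed groups lay mostly above both chow-fed groups, with C 2, T 13 and T 17 inside their range. The limma adjusted p was 0.0407 over the 4 groups and 0.0210 for the diet effect of 17.5 points. This tile was also called for T+WSD against C, with a difference of 24.5 points (limma adjusted p = 0.0126). Of the 25 refits, the call over the 4 groups held in 19 at the second tile and in 5 at the third, and the diet call held in 16 and 23.

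Diet as a main effect was called in these 2 tiles, both higher on WSD, against 0.0131% of all tiles tested. An unadjusted limma p under 0.05 for diet was found in 384 variable tiles (23.3%), with 206 higher and 178 lower on WSD. The same-level tiles with an SD under 10 points had 19.2%, with 208 higher and 410 lower. Over all tiles it was 9.78%, with 2287 higher and 2949 lower. The count of 2 called tiles moved with single animals. It was 0 without C 3 or WSD 21, 1 without C 1, T 17, T 18, WSD 22, T+WSD 9 or T+WSD 10, 4 without C 4 or C 6, 5 without WSD 24, 9 without C 2 and 14 without WSD 19.

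Testosterone as a main effect was called by limma in 0 variable tiles, and the share of all tiles called was 0%. At an unadjusted limma p under 0.05 there were 206 variable tiles (12.5%), of which 81 were higher and 125 lower with testosterone. The same-level tiles with an SD under 10 points had 12.1%, with 76 higher and 315 lower. Over all tiles it was 7.46%, with 989 higher and 3007 lower. The count of 0 was the same without any single animal. For the interaction, 127 variable tiles (7.72%) had an unadjusted limma p under 0.05. The share was 6.86% in same-level tiles with an SD under 10 points and 5.39% over all tiles.

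The comparison of T+WSD with C gave the most calls. It was called in 48 variable tiles, 22 higher and 26 lower in T+WSD, while 0.39% of all tiles passed, 0.129% higher and 0.261% lower. Among the same-level tiles with an SD under 10 points, 11 were higher and 39 lower. The 48 differences ranged from 18.8 to 36.9 points in size with a median of 21.8 points, and their sizes follow in part from the SD that selected the tiles. An unadjusted limma p under 0.05 was found in 441 variable tiles (26.8%). It was found in 23.6% of same-level tiles with an SD under 10 points and in 11.1% of all tiles. All 6 T+WSD animals lay on the same side of all 6 C animals in 70 variable tiles (4.25%), against 1.33% of all tiles. It was also so in 32 of the 48 called tiles, which were chosen by this same comparison. The share in same-level tiles with an SD under 10 points is not given here. Whether the excess is particular to variable tiles therefore cannot be read from these values. CpG-centred values gave 58 calls, while 10 were made with T+WSD and C fitted alone, 7 with a trended robust prior and 2 on the logit scale.

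The number of calls moved with single animals. It was 1 without C 1, 2 without T+WSD 8 or T+WSD 9, 3 without C 3, 6 without T+WSD 10, 10 without C 5, 16 without T+WSD 7, 17 without C 4 and 24 without T+WSD 12. The highest count was 56, without C 2.

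Among the gains, the largest was at chr16:4148001-4149000 (5 CpG rows over 208 bp). Levels were at 17.01%, 28.6% and 39.3% in C, at 35.2%, 43.7% and 54.1% in T, at 19.7%, 53.3% and 56.7% in WSD and at 51.2%, 63.7% and 92.8% in T+WSD. C and T+WSD did not overlap, and most T and WSD animals lay between the means of C and T+WSD, with WSD 19 among the lowest C animals. The difference was 36.9 points (limma adjusted p = 0.0255), and T+WSD 8 stood 22.96 points above the next animal. After chr4:171431001-171432000, the next gain was at chr13:3157001-3158000 (10 CpG rows over 225 bp). The animals lay at 28.3%, 44.8% and 58.8% in C, at 34.1%, 51.1% and 60.3% in T, at 49.6%, 60.01% and 76.8% in WSD and at 59.2%, 78.7% and 82.7% in T+WSD. C and T+WSD came within a point of each other without overlap, and the difference was 27.7 points (limma adjusted p = 0.0397). The call held in 20 of the 25 refits at the chromosome 16 tile, in 18 at the chromosome 13 tile and in 25 at the chromosome 4 tile.

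Among the losses, the largest was at chr3:44475001-44476000 (5 CpG rows over 154 bp). By group, the levels were at 55.8%, 75.5% and 77.2% in C, at 36.5%, 47.5% and 75.1% in T, at 33.7%, 52.9% and 79.7% in WSD and at 30.3%, 37.4% and 53.7% in T+WSD. C and T+WSD did not overlap, while T and WSD animals reached into both. T+WSD was 31.4 points lower (difference -31.4, limma adjusted p = 0.0440). At chr10:88908001-88909000 (7 CpG rows within 67 bp) the levels were at 56.5%, 74.6% and 86.6% in C, at 51.1%, 62.2% and 76.4% in T, at 45.8%, 68.2% and 78.2% in WSD and at 23.6%, 40.3% and 67.3% in T+WSD. T+WSD 7 lay inside the range of C, and the other T+WSD animals lay below every C animal (difference -31.0, limma adjusted p = 0.0435). At chr19:187001-188000 (5 CpG rows within 61 bp) the levels were at 47.3%, 69.9% and 80.8% in C, at 44.1%, 54.2% and 81.2% in T, at 49.8%, 56.9% and 73.3% in WSD and at 33.0%, 39.2% and 53.7% in T+WSD. C 5 and T+WSD 12 overlapped, and the difference was -27.2 points (limma adjusted p = 0.0435). The calls of these losses held in 7, 10 and 10 of the 25 refits, with adjusted p up to 0.128, 0.136 and 0.128.

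**Figure D3:**
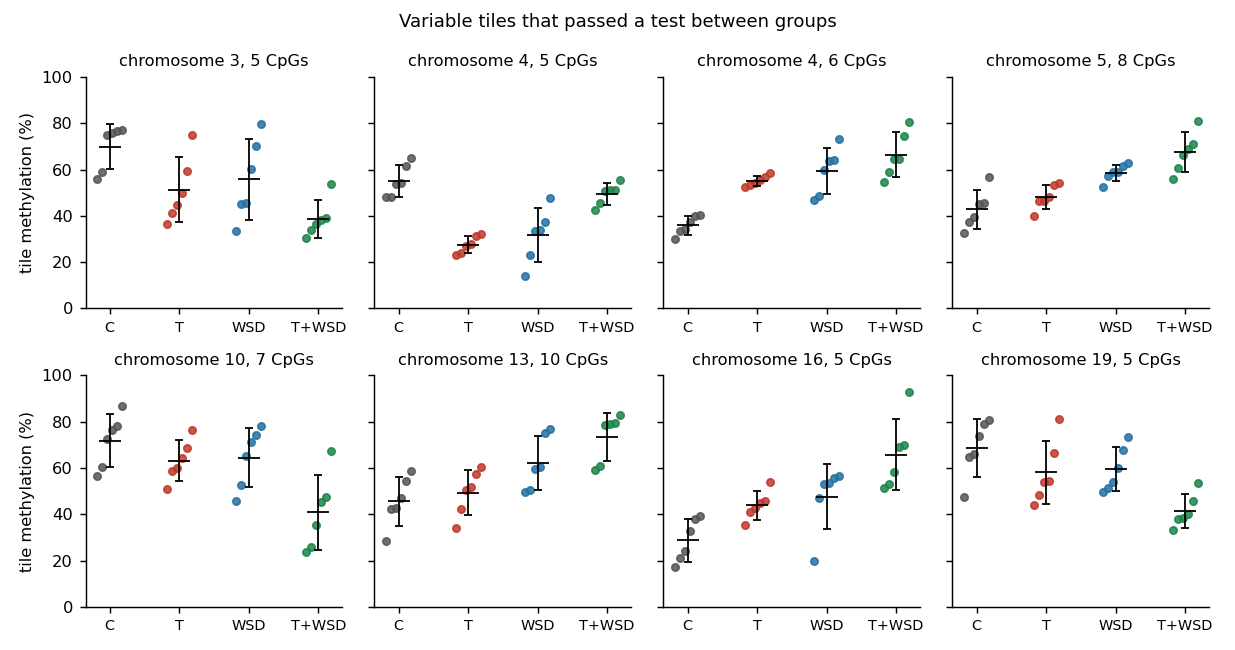
Methylation in percent (vertical axis) by group of the 8 named tiles that passed a test between groups, with a point for each animal and the group mean ± SD (n = 6). At the chromosome 4 tile with 6 CpGs all C animals lie below all others, and at the chromosome 4 tile with 5 CpGs T and WSD lie low.

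CpGs of a variable tile varied together over short distances. For CpG pairs 1 to 10 bp apart the median correlation across animals was 0.692 over the variable tiles, against 0.466 in same-level tiles with an SD under 10 points and 0.304 in those with an SD under 5 points. At 51 to 100 bp the values were 0.458, 0.239 and 0.0884, and at 251 to 500 bp they were 0.185, 0.0839 and 0.0387. At 501 to 999 bp they were 0.0665, 0.0530 and 0.0134. A tile SD grows when its CpGs vary together, so part of this order follows from the rule. CpGs in close range can lie on the same reads and then share counting error, and missing values were set to the CpG mean for these correlations.

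Where a tile could be split at a gap of at least 75 bp between CpGs, its sides gave separate values for the same animals. In 677 variable tiles their median correlation was 0.333, and the sides shared 41.2% of their spread. Of this shared part, 27.6% lay between the groups, and 25.8% without C 1. In 1882 same-level tiles with an SD under 10 points the median correlation was 0.191, the shared part was 18.7%, and 31.5% of it lay between the groups. A tile SD grows when its sides vary together, so the higher correlation and shared part of variable tiles follow in part from the rule. In 249 same-level tiles with an SD under 5 points the sides shared 1.05% of their spread. The between-group part of it came out at 72.1%, and at 121.6% without C 1. This ratio of estimates is thus unstable where little spread is shared. Read depth was not given in the values used here, so the counting error of a tile is unknown.

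**Figure D4:**
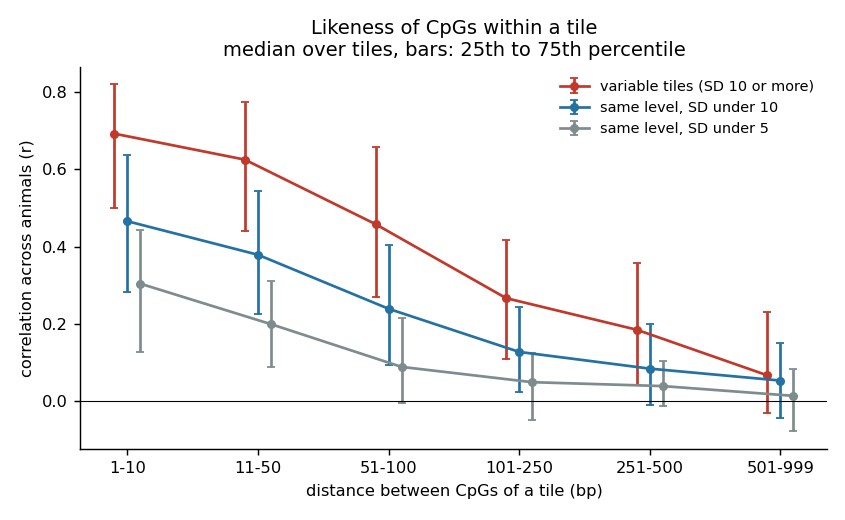
Median correlation across animals of CpG pairs within a tile (vertical axis, r) by distance in bp (horizontal axis), with bars from the 25th to the 75th percentile of tiles. It falls from 0.692 at 1 to 10 bp to 0.0665 at 501 to 999 bp in the variable tiles and is lower in both other classes at each distance.

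Tiles next to a variable tile were not selected by their own SD. The 598 tested tiles next to a variable tile had a median SD of 6.11 points and a median correlation with it of 0.219, and 11.4% of them were variable tiles too, against 5.90% of the tiles next to same-level tiles with an SD under 10 points and 3.07% of all tiles tested. Tiles next to same-level tiles with an SD under 10 points had a median SD of 5.30 points and a median correlation of 0.155, and the median SD over all tiles tested was 3.33 points. Of the runs of adjacent variable tiles, 1579 were single tiles, 32 had 2 tiles and 1 had 3 tiles.

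Adjacent tiles did not always form a common unit. In the pair at chr12:125340001-125342000, 54 CpG rows followed the same animals in both tiles (r = 0.879, SD 18.4 and 19.9 points). In its first tile the levels were at 42.4%, 50.8% and 62.5% in C, at 23.5%, 64.4% and 79.9% in T, at 21.998%, 59.0% and 77.2% in WSD and at 19.1%, 44.5% and 73.8% in T+WSD. C had the narrowest range, the groups overlapped, and 12.9% and 14.2% of the spread of the tiles lay between them. T+WSD 8, T+WSD 7, WSD 21 and T 15 were the lowest animals of both tiles.

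The run of 3 tiles at chr6:463001-466000 had SDs of 10.2 to 11.5 points, correlations between neighbours from -0.371 to -0.103, and between-group shares of 7.76% to 11.6%. All 3 of its SDs were under 10 points with CpG-centred values, at 8.28, 9.76 and 6.44 points, and their between-group shares were then 9.54%, 16.1% and 19.5%. The pair at chr14:1836001-1838000 had SDs of 19.6 and 15.5 points and a correlation of -0.268 over the animals with a value in both tiles. Its between-group shares were 29.0% and 34.7%. T was the highest group mean in its first tile (58.5%) and the lowest in its second (29.0%), where 19 animals had a value, and neither tile passed the limma F test (adjusted p = 0.526 and 0.530).

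Single animals stood apart in many of the tiles. T 16 was the animal farthest from the tile median in 239 variable tiles (14.5%), and C 1 was in 178 (10.8%). In same-level tiles with an SD under 10 points the shares were similar, at 13.5% for T 16 and 11.6% for C 1. T 16 lacked 14.8% of all CpGs, the most of any animal, and lacked at least 1 CpG in 38.2% of the variable tiles. C 1 lacked 3.24% of all CpGs. With CpG-centred values T 16 was farthest in 217 tiles and C 1 in 182. Without its most extreme animal, 562 of the variable tiles (34.1%) had an SD under 10 points. Leaving out the farthest value lowers an SD in any case, and 770 variable tiles had an SD from 10 to 12 points. Part of this count therefore follows from the threshold.

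The mean level over the variable tiles was 51.1% ± 1.02 in C, 50.3% ± 1.80 in T+WSD, 49.9% ± 1.82 in T and 50.6% ± 2.49 in WSD (SD, n = 6). No test was run on these means. C and T+WSD stood apart along the first principal component, computed over the 1287 tiles with all animals, which held 15.2% of the variance. C averaged -5.33 and T+WSD averaged 5.25 on it, T and WSD averaged -1.27 and 1.34, and no T+WSD animal overlapped a C animal. The T animals (-2.68 to 1.32) and the WSD animals (-4.26 to 5.58) reached into the ranges of both C and T+WSD. The groups held 60.2% of the spread along this component, and 54.4% without C 1, its lowest animal at -12.3. In same-level tiles with an SD under 10 points the same share was 63.5%. The second component held 9.27% of the variance, and T 16 stood alone on it at 18.1 (14.4 with CpG-centred values).

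**Figure D5:**
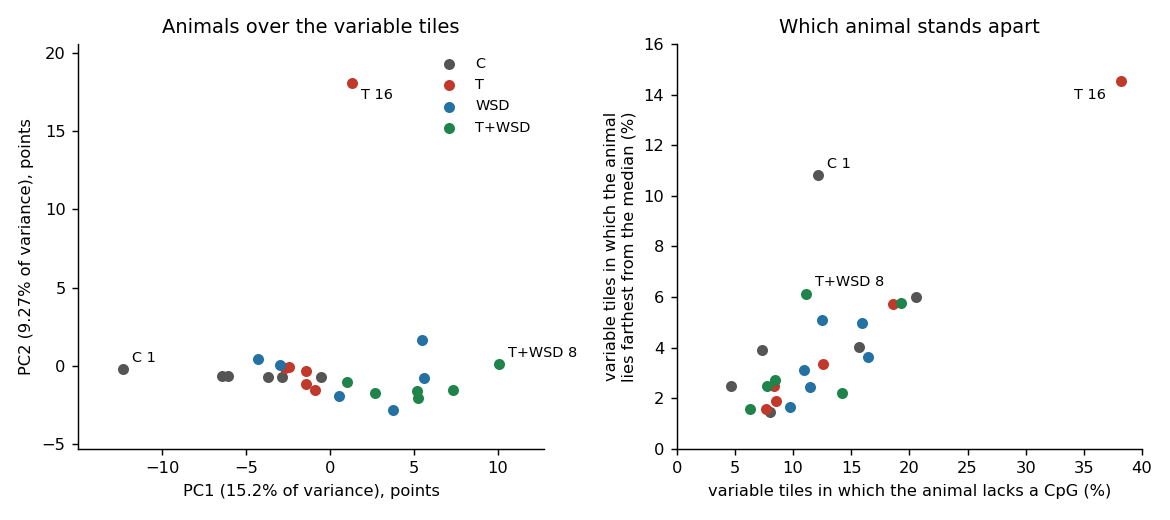
The left panel places each animal on the first and second principal components of the variable tiles, in points; C lies left, T+WSD right, and T 16 stands alone at 18.1 on the second. The right panel gives, for each animal, the percent of variable tiles in which it lies farthest from the median (vertical axis) by the percent in which it lacks a CpG (horizontal axis), with T 16 at 14.5% and 38.2%.

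The variable tiles made up 2.23% of the tested tiles on chromosome 12, the lowest share, and 4.12% on chromosome 16, the highest. Of the variable tiles, 20.2% lay within 2 Mb of a chromosome's start or of its last measured tile, against 22.3% of same-level tiles with an SD under 10 points and 15.03% of all tiles. The CpGs of a variable tile spanned a median of 181.5 bp, against 192 bp over all tiles, 247 bp in same-level tiles with an SD under 10 points and 348 bp in those with an SD under 5 points. The median SD between the mean levels of the CpGs inside a tile was 14.1 points in the variable tiles, 18.98 points in those with an SD under 10 points and 27.9 points in those with an SD under 5 points, and it was 5.21 points over all tiles. By these medians, the CpGs of variable tiles were closer together and more alike in level than those of both other same-level classes. They were less alike in level than those of all tiles. A tile SD grows when its CpGs vary together, which close CpGs did more. A tile that mixes CpGs of very low and very high level can have an intermediate mean with little room for spread. Part of the order between the same-level classes therefore follows from the rule, and how much was not tested.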

How the data were processed

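RRBS values of 24 animals (6 in each of 4 groups, from the sample labels) were used. The authors deposited percent methylation per CpG and animal, unscaled, after Trim Galore 0.4.2 and Bismark 0.16.1 alignment to rheMac8, for CpGs covered 10 times or more in 4 or more animals per group. Read depth beyond that minimum is unknown, so no counting interval was computed. From 790368 CpG rows on chromosomes 1 to 20, means were taken over tiles of 1000 bp. A CpG without a value was left out of the mean in that animal. Limma 3.58.1 (R 4.3.3) was fitted to arcsine square root rates of all 53544 tiles with all groups in 1 fit, and a call needed a Benjamini-Hochberg adjusted p under 0.05 and a difference over 10 points. The tests are two-sided, and a fit used the animals with a value. It was tested on simulated data. Other tables were made with Python 3.11.15, numpy 2.4.6 and pandas 2.3.3.

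The main effects average a factor over both levels of the other factor. Named tiles are the 5 with the largest SD, the tiles called over the 4 groups, up to 3 gains and 3 losses called per contrast, the 3 smallest between-group shares among the 50 largest SDs, the 3 longest runs and the tiles next to the SD threshold. The members, the classes and this rule were chosen with earlier results of these data known. Alternatives covered the tile grid, CpG and level filters, thresholds, scale, prior, samples fitted and omission of each animal. The version with CpG means taken out was added after the data were seen.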

Additional observations from a re-analysis of the deposited data

Results flagged for a closer look

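Of 64 sets of 4 to 6 animals examined, 4 had a single animal far from the rest by Dixon's ratio, where chance gives about 1 in 20. T+WSD 9 was the highest T+WSD animal at chr3:44475001-44476000, at 53.7%. T 13 was the highest T animal at chr7:165012001-165013000, at 90.8%. WSD 19 was the lowest WSD animal at chr16:4148001-4149000, at 19.7%. WSD 22 had the lowest mean level over the variable tiles in WSD, at 45.8%.

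The effect of testosterone differed between the diets at chr4:37257001-37258000 by 45.4 points (limma adjusted p = 0.00313 for the interaction). C and T+WSD carry the animal numbers 1 to 12 and T and WSD 13 to 24, and a batch along these numbers cannot be told apart from it.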

How the results depend on the processing

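The 1646 variable tiles became 656 with only CpGs that had a value in all animals, 2809 and 876 with an SD threshold of 8 and 12 points, and 3913 and 629 with at least 3 and 8 CpG rows. The pooled between-group share of 18.9% was 21.5% over the 656 tiles with complete CpGs and 16.9% as a median over the 1646 tiles. With CpG means taken out it was 20.8% over the 1295 tiles then selected and 20.7% over the same 1646. With an animal left out it ran from 18.4% (without C 1) to 20.2% (without T 18). The 48 calls of T+WSD against C became 91 at an adjusted p under 0.1, 31 with all tiles of at least 3 CpG rows tested, 10 with T+WSD and C fitted alone, 7 with a trended robust prior and 2 on the logit scale, and ran from 1 to 56 with an animal left out. The 2 diet calls became 22 at an adjusted p under 0.1, 13 with complete CpGs and 0 on the logit scale, and ran from 0 to 14. The 3 calls over the 4 groups ran from 0 to 4. The single interaction call became 2 on a tile grid shifted by 500 bp and was 1 in every omission, and the testosterone count was 0 in every setting run. The cause of these shifts was not tested. With an animal left out or untransformed values, the call was kept in 25 of 25 fits at chr4:171431001-171432000 (T+WSD against C), 23 for diet at chr5:7781001-7782000, 20 at chr16:4148001-4149000, 18 at chr13:3157001-3158000, 10 at chr10:88908001-88909000 and chr19:187001-188000 and 7 at chr3:44475001-44476000, and no difference changed sign. No paired analysis was possible because the animal numbers differ between the groups. Depth per CpG is unknown, and precision is limited by 6 animals in a group.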
